A study of Mus musculus with 4 samples.

Results

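Methionine and one-carbon metabolism in the liver was followed here through 9 genes, Mat1a, Gnmt, Ahcy, Bhmt, Cbs, Cth, Pemt, Shmt1 and Gamt. They were taken by name, as every non-control probe of the array that carries 1 of these symbols, which gave 13 of the 41174 probes on the array and 9 of its 27975 gene names. Mat1a, Gnmt, Bhmt, Cbs, Cth and Gamt had 1 probe each, Pemt and Shmt1 had 2 and Ahcy had 3.

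The study examined what an ostrich-derived Lactobacillus does to mouse body weight, gut microbes and metabolism, and its arrays cover the liver. RNA from 4 female BALB/c mice, killed 20 days after inoculation, was hybridised to 1 Agilent 1-colour array per mouse. The 2 mice labelled control and the 2 mice labelled LB1 share strain, sex, tissue and day, and no genetic change is named in either. The meaning of LB1, the inoculum of the control mice and the ages of the animals are not given in the sources used here. P-values measure the spread between these 4 arrays, in which animal and technical variation are joined.

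In the liver, methionine is turned into S-adenosylmethionine, the methyl donor of most methylation reactions. Methyltransferases use it and leave S-adenosylhomocysteine, which is split to homocysteine. Homocysteine is then either remethylated to methionine, with betaine or a folate as the methyl source, or passed into transsulfuration towards cysteine. Folates receive their carbon units mainly from serine, and hepatocytes are the main site of most of these steps.

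Sequences of 4 probes are given because the results for Ahcy, Shmt1 and Pemt differ between probes at separate positions of the same gene. The Ahcy probes are listed under different sequence records, so a shared transcript is not established for them. Each is 60 bases, written in the sense of the mRNA from the 5′ end as the scanner files list it, and each has a forward reading frame free of stop codons. Coordinates are on mm9, the build the files name, and all of these genes lie on the minus strand. The Pemt probe spans an intron, so its coordinates cover more of the genome than its length.
Ahcy, upstream probe, chr2:154891321-154891380: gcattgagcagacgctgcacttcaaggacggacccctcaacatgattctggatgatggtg
Shmt1, upstream probe, chr11:60612096-60612155: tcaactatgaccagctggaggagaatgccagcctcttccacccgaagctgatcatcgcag
Shmt1, downstream probe, chr11:60603099-60603158: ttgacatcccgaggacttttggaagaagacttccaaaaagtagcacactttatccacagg
Pemt, upstream probe, chr11:59787649-59790367: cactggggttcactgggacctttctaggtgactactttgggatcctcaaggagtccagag

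Values are the log2 of the scanner's processed signal minus the 75th percentile of that array, so 0 marks that percentile of brightness. Differences are LB1 minus control, tested with limma across 22957 probes, with Benjamini-Hochberg adjustment and a threshold of 0.05. Probe values are not compared between genes as amounts of mRNA. In a piece of liver, fewer cells of a type and less RNA per cell cannot be told apart.

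Of the whole arrays, the 75th percentile of the signal was 411 and 415 on the control arrays and 147 and 80.8 on the LB1 arrays, so the LB1 arrays were dimmer before scaling. Array values correlated at 0.989 between the control arrays, at 0.973 between the LB1 arrays and at 0.906 to 0.950 between groups. All 8 hepatocyte markers were well above background in each group, and 5 of them were called higher in LB1, 4 of these on saturated spots. Of the 10 tested mesothelial markers, 9 were called higher. Their summed level was 0.80 and -1.75 in control and 3.96 and 5.72 in LB1. Called higher were also 2 of 3 tested striated muscle markers, 3 of 6 lymphocyte, 1 of 3 exocrine pancreas and 1 of 7 endothelial markers, and called lower were 2 of 7 macrophage and 1 of 4 cholangiocyte markers. None of 3 adipocyte markers was called. The part of brightness, of these cells and of RNA quality in the results below was not tested.

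All 13 probes were well above background on all 4 arrays and were tested. By the brightest probe of each gene, 1 of the 9 genes was called, Bhmt, which was lower, where 31.5% of the 15773 tested genes were called, 21.7% higher and 9.78% lower. The median difference of the 9 genes was -0.40 against 0.30 over all tested genes. It was -0.65 without LB1 1 and -0.05 without LB1 2, where the median of all tested probes was 0.12 and 0.20. By single probes, 3 of 13 were called and all 3 were lower, the upstream probe of Ahcy, the Bhmt probe and the upstream probe of Shmt1. Of all tested probes 32.4% were called, 19.2% higher and 13.2% lower.

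The groups did not overlap in 10 of the 13 probes, 6 with both LB1 arrays lower and 4 with both higher, where 76.1% of all tested probes had groups that did not overlap, 32.3% with LB1 lower and 43.8% with LB1 higher. For the middle Ahcy probe, counted among the 4, the control values are lower limits, so its order is not established. At an unadjusted p under 0.05, 5 of the 9 genes passed, Bhmt, Cth and Shmt1 lower and Pemt and Gamt higher, beside 47.9% of all tested genes. With both directions counted, the shares of called and non-overlapping members were thus near or under the background in this scaling. For probes lower in LB1 the shares were larger than the background, 3 of 13 called beside 13.2% and 6 of 13 not overlapping beside 32.3%. For probes higher in LB1 they were smaller, with none called beside 19.2% and 4 of 13 not overlapping beside 43.8%. An exact 2-sided permutation test over the 4 arrays has 6 assignments and cannot give a p under 0.33.

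**Figure D1:**
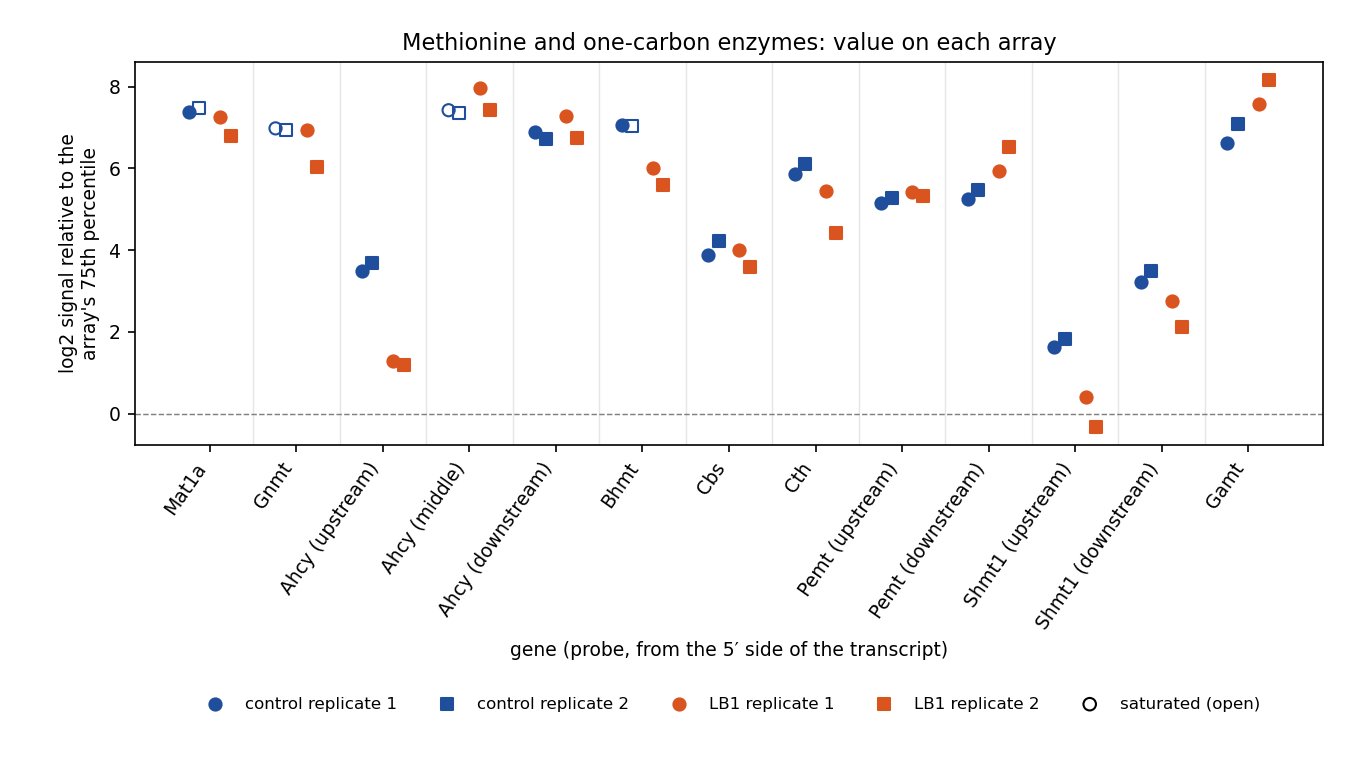
Log2 signal relative to each array's 75th percentile (y axis) for the 13 probes (x axis), with control arrays in blue, LB1 arrays in orange, replicate 1 as circles, replicate 2 as squares and saturated spots open. The upstream Ahcy probe stands at 3.49 and 3.69 in control and at 1.30 and 1.20 in LB1, while the other Ahcy probes lie near 7 in both groups.

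Mat1a encodes the liver form of methionine adenosyltransferase, which makes S-adenosylmethionine. Its probe (chr14:41937140-41937199, plus strand) read 7.37 and 7.48 in control and 7.26 and 6.78 in LB1, and the spot of control 2 was saturated. Both LB1 arrays were below both control arrays, one of them by little. The difference of -0.40 (SE 0.26, limma adjusted p = 0.265) did not pass the threshold. Other scalings moved it past the threshold: it was -1.40 after quantile normalization (limma adjusted p = 0.0348) and -1.04 against the array median (limma adjusted p = 0.0380).

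The 3 methyltransferases did not move in 1 direction. Gnmt encodes glycine N-methyltransferase, which takes up excess S-adenosylmethionine in hepatocytes. Its probe (chr17:46862894-46863042, minus strand) read 6.98 and 6.93 in control, both saturated, and 6.93 and 6.04 in LB1. LB1 2 was below the control limits, and LB1 1 cannot be placed against them. The difference was -0.47, with control 1.38-fold higher (SE 0.35, limma adjusted p = 0.330). With control at the ceiling, it is only an upper limit for these arrays in this scaling. This limit does not cover sampling error, and the difference did not pass the threshold. It was -1.07 with normexp background correction (limma adjusted p = 0.0310) and -0.91 without LB1 1 (limma adjusted p = 0.0293). Without LB1 2 it was -0.02 (limma adjusted p = 0.938), so the size rested on that array.

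Pemt encodes the enzyme that methylates phosphatidylethanolamine to phosphatidylcholine, a large use of methyl groups in liver. Its downstream probe (chr11:59784278-59784337, minus strand) read 5.25 and 5.47 in control and 5.93 and 6.53 in LB1, both LB1 arrays above both controls. The difference was 0.87 (SE 0.29, limma adjusted p = 0.0722), and it was 0.24 against the array median (limma adjusted p = 0.690). The upstream probe, printed above, read 5.15 and 5.26 in control and 5.41 and 5.32 in LB1. These groups did not overlap but were close, with a difference of 0.16 (SE 0.21, limma adjusted p = 0.575). Its direction was turned by every other scaling and background correction, and with normexp it was called lower, at -0.41 (limma adjusted p = 0.0286).

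Gamt encodes guanidinoacetate N-methyltransferase, which completes creatine. Its probe (chr10:79720991-79721047, minus strand) is spotted 10 times on each array, and the coefficient of variation over these spots was 2.11% and 4.42% in control and 3.24% and 4.87% in LB1. The averaged value was 6.62 and 7.09 in control and 7.57 and 8.17 in LB1, both LB1 arrays above both controls. On control 2, 2 of the 10 spots were saturated, so its value and spread are limited from above. The difference of 1.02, or 2.02-fold (SE 0.32, limma adjusted p = 0.0625), missed the threshold. It passed with the slide as a block (limma adjusted p = 0.0421) and without LB1 1 (1.31, limma adjusted p = 0.0316). Its size fell to 0.27 under quantile normalization (limma adjusted p = 0.50).

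**Figure D2:**
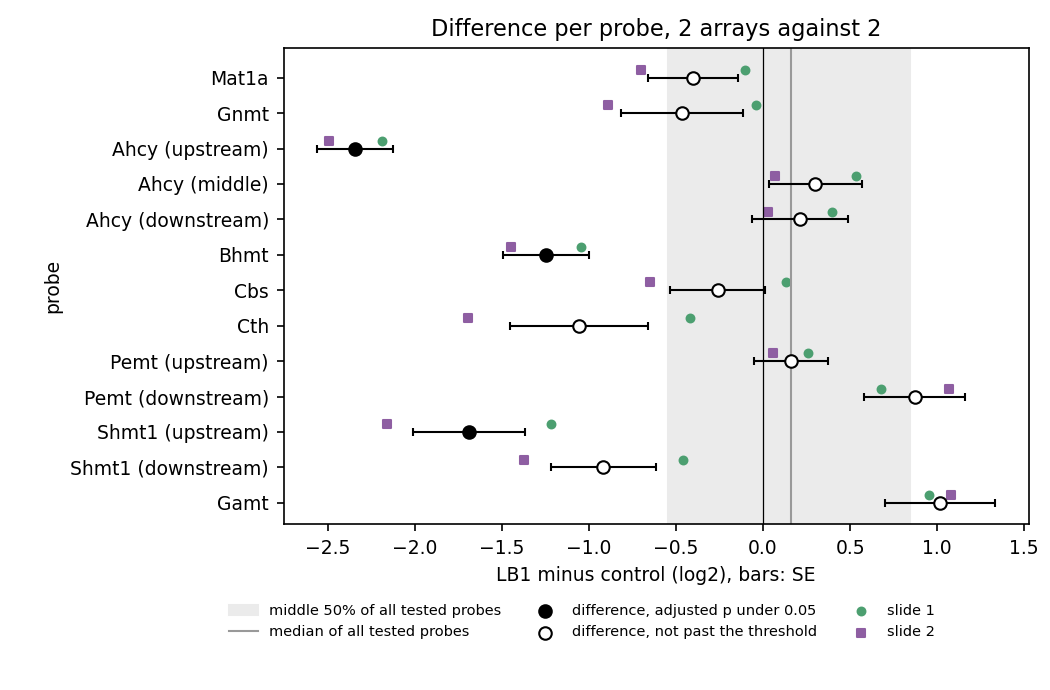
Difference LB1 minus control in log2 units (x axis) for each of the 13 probes (y axis), with bars of 1 SE, filled points past the limma threshold and small points for the difference on each slide. The grey band holds the middle 50% of all tested probes around their median of 0.16, and the 3 filled points, Bhmt and the upstream probes of Ahcy and Shmt1, all lie to its left.

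Ahcy encodes S-adenosylhomocysteine hydrolase, which removes the product of all these methyl transfers. Its upstream probe read 3.49 and 3.69 in control and 1.30 and 1.20 in LB1. The LB1 arrays lay close together and far below the controls. The difference was -2.34, 5.07-fold lower (SE 0.22, limma adjusted p = 0.0201), and 0.954% of all tested probes had a lower one. The slides gave -2.19 and -2.49. The call was lost without control 1 (limma adjusted p = 0.0587) and without control 2 (limma adjusted p = 0.118), with differences of -2.44 and -2.24.

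The middle Ahcy probe (chr2:154885817-154885876, minus strand) read 7.42 and 7.36 in control, both saturated, and 7.95 and 7.43 in LB1, which were not saturated. Because the control values are lower limits, the direction of its difference of 0.30 is undetermined (SE 0.27, limma adjusted p = 0.404). The downstream probe (chr2:154885578-154885643, minus strand), saturated on no array, read 6.89 and 6.72 in control and 7.29 and 6.75 in LB1. The groups overlapped, with a difference of 0.21 (SE 0.27, limma adjusted p = 0.567). Every other scaling and background correction turned the sign of both values, without passing the threshold, so no direction can be given for the 3′ side of Ahcy. The upstream difference was between -2.98 and -2.34 under the same alternatives.

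Of the genes that dispose of homocysteine, Bhmt encodes betaine-homocysteine methyltransferase, which is abundant in liver and returns homocysteine to methionine. Its probe (chr13:94390054-94390113, minus strand) read 7.06 and 7.03 in control and 6.01 and 5.58 in LB1, and the spot of control 2 was saturated. Both LB1 arrays were below both controls. Bhmt fell from 7.05 ± 0.02 to 5.80 ± 0.30 (SD, n = 2), a difference of -1.25 or 2.38-fold (SE 0.25, limma adjusted p = 0.0267). The control mean and its SD include 1 lower limit, so the true control spread is not known. The difference on slide 1 was -1.05 and that on slide 2 was -1.45.

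The direction of Bhmt held in every alternative run, and its size reached -1.88 against the array median. The call was lost without control 1 (limma adjusted p = 0.139), without control 2 (limma adjusted p = 0.166) and with saturated spots left out (limma adjusted p = 0.0573). Of these, the last gave -1.26, the same value as without control 2, because both leave control 1 alone in its group. Control 1, at 7.06, was as bright as the saturated control 2, at 7.03. This alternative therefore cannot show whether saturation limits the size of the fall. The related Bhmt2, which methylates homocysteine from S-methylmethionine, had a difference of -0.70 (limma adjusted p = 0.0661). Mtr, the folate-dependent remethylating enzyme, differed by -0.15 by its brightest probe (limma adjusted p = 0.656). A second Mtr probe differed by 1.001 and was called higher (limma adjusted p = 0.0406). That probe was dim, at -3.62 and -3.82 in control and -2.51 and -2.93 in LB1. The lowest signals well above background were -5.34 and -5.40 on the control arrays and -3.64 and -3.34 on the LB1 arrays. The part of this floor in the Mtr difference was not tested.

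Cbs and Cth encode cystathionine beta-synthase and cystathionine gamma-lyase, the consecutive enzymes of transsulfuration. The Cbs probe (chr17:31749967-31750026, minus strand) read 3.87 and 4.23 in control and 4.00 and 3.57 in LB1. The groups overlapped, and the difference of -0.26 (SE 0.27, limma adjusted p = 0.476) had opposite signs on the slides, 0.13 and -0.65. The Cth probe (chr3:157557667-157557726, minus strand) read 5.87 and 6.11 in control and 5.45 and 4.42 in LB1. Both LB1 arrays were lower, LB1 2 by much more than LB1 1. The difference of -1.06 (SE 0.39, limma adjusted p = 0.0936) was -1.57 without LB1 1 (limma adjusted p = 0.0157) and -0.54 without LB1 2, so 1 array decided whether it passed. With normexp Cth was -1.63 (limma adjusted p = 0.0139) and Cbs -0.79 (limma adjusted p = 0.0240).

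Shmt1 encodes the cytosolic serine hydroxymethyltransferase, which moves a carbon unit between serine and folate. Its upstream probe read 1.63 and 1.83 in control and 0.41 and -0.33 in LB1. Its downstream probe read 3.23 and 3.50 in control and 2.76 and 2.12 in LB1. On both, each LB1 array was below each control. The upstream probe was called lower, by -1.69 or 3.22-fold (SE 0.32, limma adjusted p = 0.0252). The downstream probe, at -0.92 (SE 0.30, limma adjusted p = 0.0709), was not. The upstream call was lost without control 1 (-1.79, limma adjusted p = 0.0923) and without control 2 (-1.59, limma adjusted p = 0.147). The downstream difference reached -1.55 against the array median (limma adjusted p = 0.0022).

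In each of the 3 genes with several probes, the probe nearer the 5′ end had the lower difference. The upstream probe lay 5737 bases from the last probe in Ahcy, 6030 in Pemt and 8997 in Shmt1, introns included. The difference of the upstream probe minus that of the downstream probe was -2.55 for Ahcy, -0.77 for Shmt1 and -0.71 for Pemt. On slide 1 it was -2.59, -0.76 and -0.42, and on slide 2 it was -2.52, -0.79 and -1.01, so it kept its sign on both slides. Between the LB1 arrays (2 minus 1) the same quantity was 0.44 for Ahcy, -0.11 for Shmt1 and -0.69 for Pemt, so for Pemt 1 group spanned about as much as the groups differed. These values rest on probes that share the RNA and have no test of their own.

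Over all 4995 genes with at least 2 tested probes 60 to 1000000 bases apart, the upstream probe had the lower difference in 54.0%, with a median of -0.12. Where both probes were brighter than the 75th percentile on average over the arrays, as for these 3 genes, it had the lower difference in 67.2% of 1172 genes, with a median of -0.36. The same quantity between arrays of a group had medians of 0.04 for control 2 minus control 1 and -0.07 for LB1 2 minus LB1 1. Among all genes with several probes, 1.94% had a lower value than Ahcy, 28.6% than Shmt1 and 30.5% than Pemt. In the 760 bright genes with probes at least 1000 bases apart, as in these 3, the upstream probe was lower in 63.9%. Their median was -0.42, and Shmt1 and Pemt lay between their quartiles of -1.14 and 0.56, with Ahcy below. In the 412 bright genes with closer probes it was lower in 73.1%. Among the other pathway genes the upstream probe was lower in 11 of 26, with a median of 0.05, and in 5 of 9 with both probes bright, with a median of -0.15. By the median of the bright genes, the 5′ probe thus had a lower difference than the 3′ probe, though not in every gene. The part of this pattern in the lower upstream values of Ahcy and Shmt1 was not tested. Mat1a, Gnmt, Bhmt, Cbs, Cth and Gamt, with 1 probe each, allow no such comparison.

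**Figure D3:**
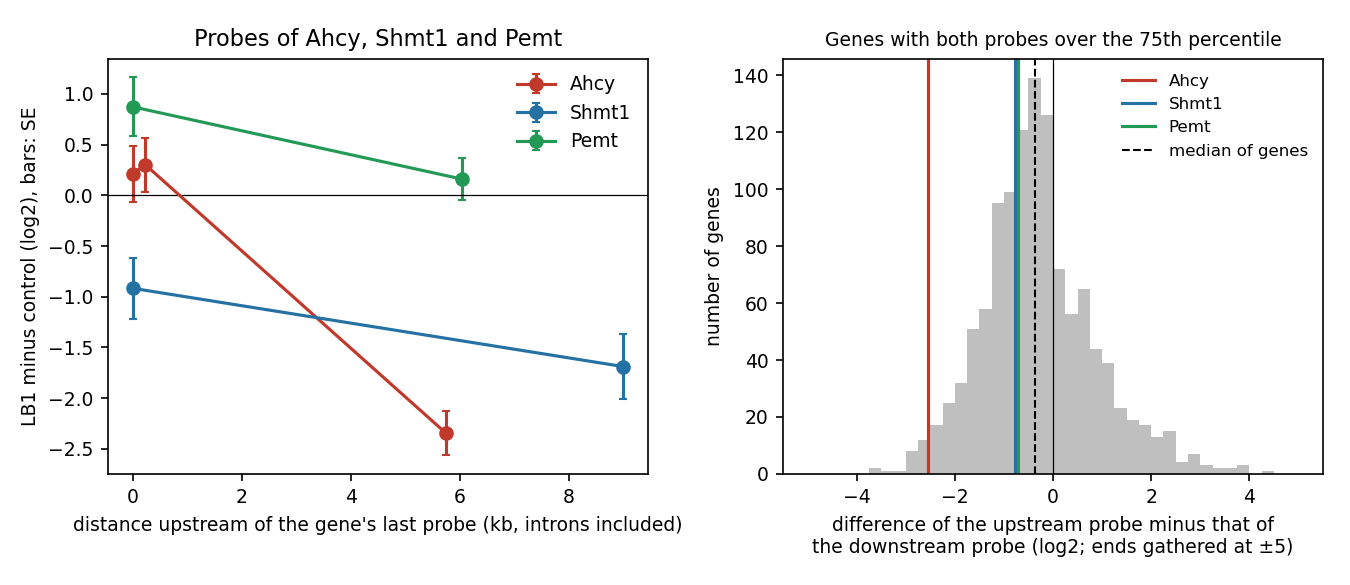
Left, LB1 minus control in log2 units (bars, SE) against the genomic distance in kb upstream of the last probe for the probes of Ahcy, Shmt1 and Pemt. Right, the number of genes by upstream minus downstream difference in log2 units for the 1172 genes with both probes brighter than the 75th percentile: their median is -0.36, and the lines of Ahcy (-2.55), Shmt1 (-0.77) and Pemt (-0.71) lie to its left.

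Bhmt and the upstream Ahcy and Shmt1 probes were called lower under all of quantile, array median, cyclic loess and normexp processing and with the table of unscaled mean signals. The scaling moved the whole distribution: the median difference of all tested probes was 0.16 against the 75th percentile, -0.09 with quantile, -0.03 with cyclic loess, -0.47 against the array median and 0.44 with normexp. Of the 9 genes, 6 lay below that median with the 75th percentile and with the array median, 7 with quantile and with cyclic loess, and 8 with normexp. The number called was 2 with quantile and with cyclic loess (Mat1a and Bhmt), 5 against the array median and 6 with normexp, and each of these calls was lower. Of all tested genes, 25.2% were called with quantile, 27.4% with cyclic loess, 33.4% against the array median and 66.7% with normexp. Lower calls alone made up 13.1%, 13.1%, 25.6% and 20.6% of all tested genes, in that order. The 9 genes therefore had between 1 and 6 lower calls and no higher call under these scalings. Other settings did give higher calls. Requiring signal well above background on all 4 arrays gave 2 higher and 2 lower, as did the trended and robust setting of limma. The table of unscaled mean signals gave 1 higher and 5 lower, and the slide as a block 1 of each. Of all tested probes, 45.1%, 37.3%, 62.9% and 30.3% were called in these settings, in that order.

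**Figure D4:**
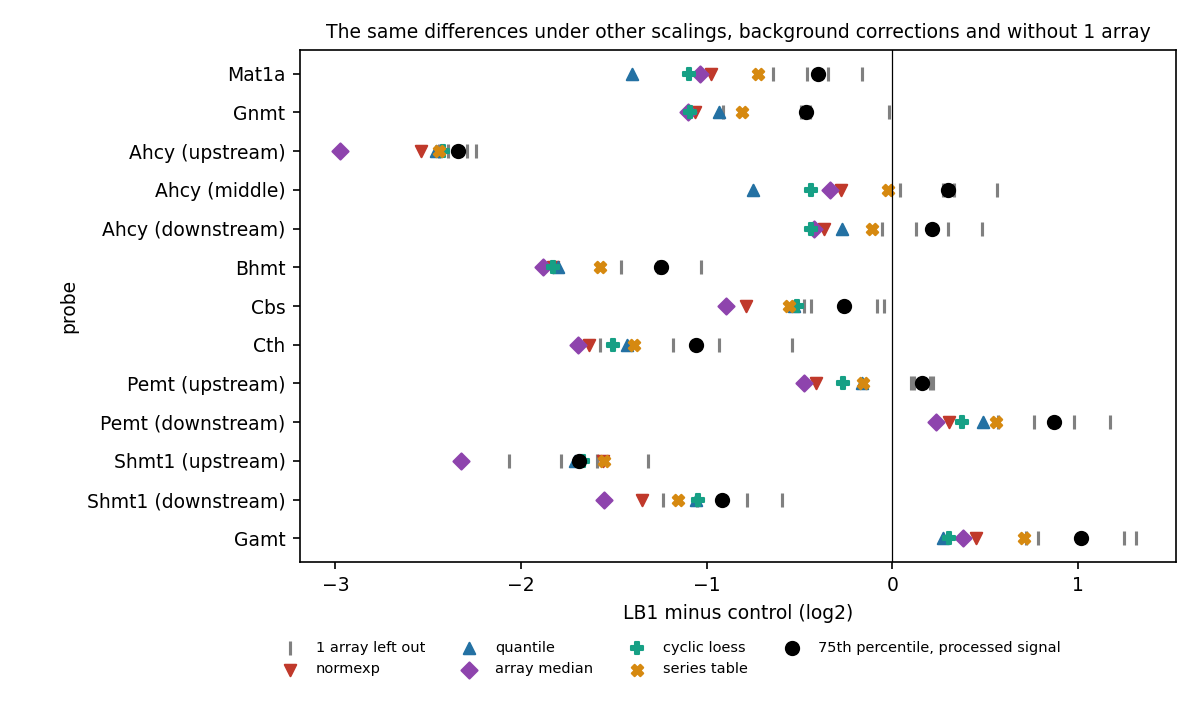
LB1 minus control in log2 units (x axis) for the 13 probes (y axis) under the 75th percentile scaling (black), 4 other scalings or background corrections, the series table, and with 1 array left out (grey ticks). Bhmt and the upstream probes of Ahcy and Shmt1 stay below 0 throughout, while both 3′ Ahcy probes and the upstream Pemt probe have points on both sides of 0.

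The other genes of the pathway were taken from 5 lists of 74 genes, of which 69 were tested. Of the 69, 10 were called higher (9 without Agxt, whose control spots were saturated) and 10 lower, and 49 did not pass, so 29.0% were called beside the 31.5% of all genes. Their median difference was -0.01, with 0.30 over all genes. The balance depended on the scaling: it was 4 higher and 15 lower with quantile and with cyclic loess, 1 and 25 against the array median, and 13 and 27 with normexp. Of all tested genes 12.1% were higher and 13.1% lower with quantile, 14.3% and 13.1% with cyclic loess, 7.86% and 25.6% against the array median, and 46.0% and 20.6% with normexp. Of the lower calls 8 of 10 passed in the same direction under all 4, and of the higher calls 1 of 10. The number called was 0 when control 1 or control 2 was left out. It was 13 with the slide as a block, a fit that called 29.7% of all tested genes and lost Mat2a, Ahcyl1, Enoph1, Mtfmt, Ethe1, Got1 and Srr.

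In the methionine cycle and salvage list, 1 of 17 genes was called higher and 3 lower, with a median of -0.17. Mat2a, the methionine adenosyltransferase of most tissues outside liver, read 4.69 and 4.32 in control and 5.34 and 5.44 in LB1, a difference of 0.89 (limma adjusted p = 0.0460). Mtap, which starts the salvage of methylthioadenosine to methionine, fell by 1.57 (limma adjusted p = 0.0243). Ahcyl1, an Ahcy-related protein, fell by 1.03 (limma adjusted p = 0.0466). The second Ahcyl1 probe, at -0.55, was not called (limma adjusted p = 0.127). Enoph1, a later salvage enzyme, fell by 0.80 (limma adjusted p = 0.0463) but turned to 0.43 with normexp. The second Enoph1 probe, at -0.70, was not called (limma adjusted p = 0.362).

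In the folate list, 3 of 18 tested genes were called higher and 3 lower, with a median of 0.08. Fpgs, which adds glutamates that keep folates in cells, read 5.80 and 5.91 in control and 7.06 and 7.23 in LB1, a difference of 1.30 (limma adjusted p = 0.0230). Ggh, which removes these glutamates, read 1.87 and 2.18 in control and 0.48 and 0.27 in LB1, a difference of -1.65 (limma adjusted p = 0.0215). The groups of these opposing enzymes did not overlap, as in 76.1% of all tested probes, and Ggh had a second probe at -2.47. Ggh kept its call under quantile, array median, cyclic loess and normexp processing. Fpgs lost its call with cyclic loess (0.71, limma adjusted p = 0.0532) and against the array median (0.66, limma adjusted p = 0.202). The folate transporter Slc46a1 and the folate receptor Folr1 rose by 1.18 and 1.57 (limma adjusted p = 0.0440 and 0.0225). Folr1 was dim in both groups, at -2.97 and -3.01 in control and -1.65 and -1.18 in LB1. The mitochondrial folate carrier Slc25a32 fell by 1.52 and Mtfmt, which formylates the mitochondrial initiator tRNA, by 0.79 (limma adjusted p = 0.0348 and 0.0456). Mthfd1, the cytosolic trifunctional folate enzyme, differed by -0.31 by its downstream probe and by -1.45 by its upstream probe (limma adjusted p = 0.348 and 0.0225).

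In the choline and glycine list, 3 of 17 tested genes were called higher and 3 lower, with a median of -0.09. Cept1 and Chpt1, which complete phosphatidylcholine by the choline route that runs beside Pemt, fell by 2.12 and 1.83 (limma adjusted p = 0.0201 and 0.0246). The other Chpt1 probes were at -1.71 and -0.48, and the last was not called (limma adjusted p = 0.138). Cept1 read 3.56 and 3.69 in control and 1.53 and 1.48 in LB1, with no overlap, as in 76.1% of all tested probes. Dld, a subunit of the glycine cleavage system that other dehydrogenase complexes share, fell by 1.69, and its other probes were at -2.04 and -2.17. Gatm, which makes the substrate of Gamt, read 0.39 and 0.04 in control and 1.76 and 1.81 in LB1, a difference of 1.57 (limma adjusted p = 0.0216). Sardh, which oxidises the sarcosine that Gnmt makes, rose by 1.15 (limma adjusted p = 0.0332). Agxt, which converts glyoxylate to glycine, had saturated spots on the control arrays and LB1 1, so neither size nor direction of its called difference, 1.59, is determined. Without it, 2 genes of the list were higher.

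In the transsulfuration and cysteine list, 1 of 11 tested genes was called in each direction, with a median of 0.35. Ethe1, which oxidises persulfides, rose by 0.77 (limma adjusted p = 0.0465). The second Ethe1 probe, at 0.62, was not called (limma adjusted p = 0.0844). Got1, the cytosolic aspartate aminotransferase, read 5.12 and 5.94 in control and 4.28 and 3.57 in LB1, and fell by 1.61 (limma adjusted p = 0.0385). In the serine list, 2 of 6 genes were called, both higher, with a median of 0.54. Phgdh, the first enzyme of serine synthesis, was dim in both groups, at -3.39 and -3.25 in control and -1.49 and -0.43 in LB1. It rose by 2.36 (limma adjusted p = 0.0230), its second probe by 2.11, and it was the only higher call of the lists kept under all 4 other scalings and corrections. Srr, which makes D-serine, was called at 0.87 by its brightest probe (limma adjusted p = 0.0424), but its other probes were at -1.70, -1.17 and 0.41.

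**Figure D5:**
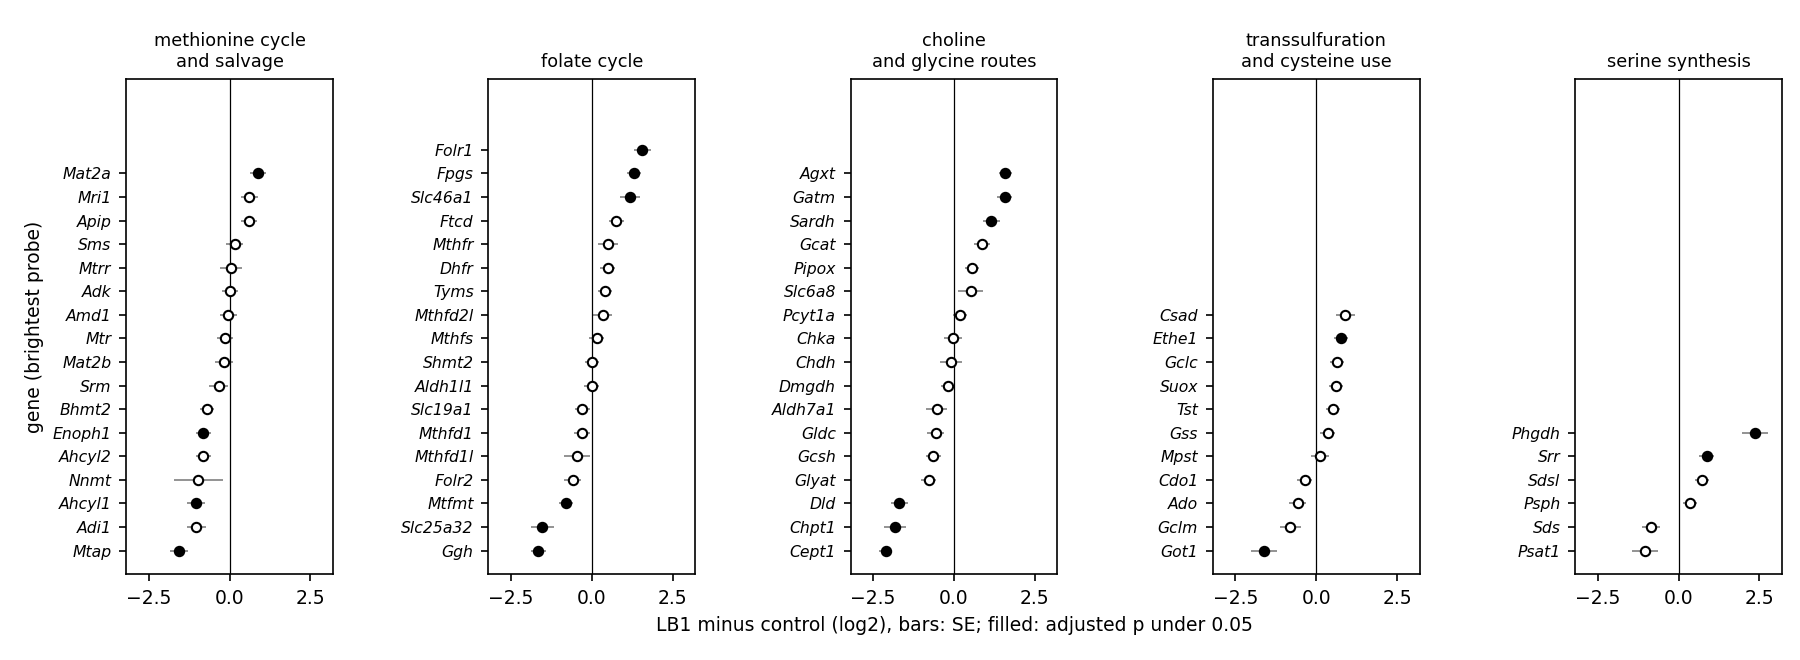
LB1 minus control in log2 units (x axes) of the brightest probe of each of the 69 tested genes (y axes), by list, with bars of 1 SE and filled points past the limma threshold. Higher and lower calls number 10 each, from Cept1 at -2.12 to Phgdh at 2.36.

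The genes whose 4 centred values lay nearest to the median profile of the 9 genes, among 13198 compared, were Gsto2, Ddx20 and Tmem50a, at Euclidean distances of 0.0325, 0.0342 and 0.0363 log2 units over 4 arrays. Their LB1 minus control differences were -0.36, -0.37 and -0.40, and that of the median profile was -0.38. With 4 arrays, many genes can lie this near.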

How the data were processed

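Liver RNA of 2 control and 2 LB1 mice was measured. Per the file headers, the deposited scanner files give a linear intensity for each spot, made by Feature Extraction 10.5.1.1 with background removal and no step between arrays. The design text of the series names other versions of the scanner and software. The deposited series table is the unscaled mean intensity of the same spots, rounded.

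Control and outlier spots were dropped, processed signals were put on the log2 scale relative to the 75th percentile of their array, and repeat spots were averaged. Testing needed a signal well above background on each array of 1 group or more. The model was fitted in R 4.3.3 with limma 3.58.1 (lmFit, eBayes), with Benjamini-Hochberg adjustment across every probe tested, and was tested on simulated data. The brightest probe stood for its gene. Where all arrays of a group were saturated, the value there is a lower limit. Probe names follow the files, RefSeq accessions and current symbols. No mm9 annotation was used, so exons and UTRs are not given. The number of arrays limits the precision. Alternatives were other background corrections, scalings, filters, eBayes settings, the methods' t-test, the series table, the slide as a block and each array left out.

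The members, the lists and the tests were chosen with earlier results of these data known. All 9 members with all probes are named, and of each list the called genes, up to 4 per direction, plus genes of a step named beside a member. Mthfd1 was named after its values were seen.

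Each slide, scanned once, held the control and LB1 array of 1 replicate number, per the file headers. The labels do not call the numbers a batch, and deviations of same-numbered arrays correlated at 0.151 over probes.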

Additional observations from a re-analysis of the deposited data

How the results depend on the processing

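Bhmt, Cth, Mat1a, Gnmt, Cbs, Gamt, both Shmt1 probes, the upstream Ahcy probe and the downstream Pemt probe kept their direction in every alternative run. The middle Ahcy probe turned to -0.28 with normexp, -0.75 with quantile, -0.33 against the array median, -0.44 with cyclic loess and -0.021 with the series table. The downstream Ahcy probe turned to -0.37, -0.27, -0.42, -0.44 and -0.11 in the same order, and to -0.058 without LB1 1, with a range of -0.058 to 0.48 without 1 array. The upstream Pemt probe turned to -0.41, -0.16, -0.48, -0.27 and -0.16. The cause was not tested. The number of the 9 genes called, 1 as reported, was 6 with normexp, 2 with quantile, 5 against the array median, 2 with cyclic loess, 4 with a filter on all 4 arrays, 4 with trended and robust eBayes, 6 with the series table, 2 with a gene's probes averaged, 0 without saturated spots (fewer genes tested) and 0 to 6 without 1 array. By the methods' t-test after Benjamini-Hochberg it was 0, with 1 gene at an unadjusted p under 0.05. With the replicate block, which is the slide, it was 2, Gamt higher and Bhmt lower. With the brightest probe saturated on no array, an alternative chosen after seeing the data, it was 0 of 6 genes. The 20 other pathway genes called became 40 with normexp, 30 with the filter on all 4 arrays, 30 with trended and robust eBayes, 38 with the series table, 13 with the replicate block, 0 to 31 without 1 array, 10 by the methods' unadjusted t-test with a 2-fold minimum and 0 after Benjamini-Hochberg (25 unadjusted). The 7433 probes called became 15983 with normexp, 20664 with no filter, 14443 with the series table, 4109 by the methods' unadjusted t-test, 0 after Benjamini-Hochberg (7012 unadjusted) and 1 to 11023 without 1 array. Of the calls over all probes 59.3% were higher, and 38.2% with quantile, 18.8% against the array median, 41.99% with cyclic loess, 71.0% with normexp and 74.0% with the series table. Without 1 array, the lone array of a group was assumed to vary like the other group. Saturation of 4 of the 9 brightest probes on a control array limits the size of any fall there.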
